A study of Mus musculus with 48 samples.

Results

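The proteasome subunit genes were examined here as every row of the count table whose mouse symbol begins with Psma, Psmb, Psmc, Psmd, Psme or Psmf followed by a number, with the 4 rows whose symbols carry -ps left out. The rule found 46 genes among the 55487 rows. Of these, 44 passed the filter on low counts in every comparison. Psma8, the testis form of an alpha subunit, never exceeded 16 counts in a library, and Psmb11, the thymus form of a beta subunit, never exceeded 4, so neither was tested. Psmc3ip matched the letters of the rule but is a meiotic recombination factor, and Psme2b is a copy of Psme2. Both were near the lower end of the tested range, with group means of 1.24 to 2.81 CPM (counts-per-million, the count scaled to library size) for Psmc3ip and 0.793 to 2.51 CPM for Psme2b. Reads that Psme2 and Psme2b share cannot be assigned with certainty to either.

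The series measured bulk RNA from kidney slices that were treated outside the body, taken from males of C57BL/6J and of DBA/2J, a pair of inbred mouse strains. For each strain the slices were untreated controls, tunicamycin or cyclosporin A, each at 6 h and at 24 h, a normoxia condition that the labels call an ischemia model, or a normoxia-hyperoxia condition that they call a reperfusion model. Both oxygen conditions carry 24 h in their titles. The 16 groups held 3 libraries each, 48 in all. Tunicamycin blocks N-linked glycosylation in the endoplasmic reticulum, and cyclosporin A is an immunosuppressant that inhibits calcineurin. The labels give no age, dose or oxygen level, and no engineered allele is named for any group. They do not say whether the replicates were separate animals, so the p-values measure the spread between these slices. The titles place the oxygen conditions and the 24 h controls in different sets of slices, and the oxygen condition cannot be told apart from any difference between those sets.

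The proteasome degrades proteins that carry ubiquitin chains. Its 20S core stacks rings of alpha subunits (Psma) around rings of beta subunits (Psmb), and Psmb5, Psmb6 and Psmb7 are the beta subunits with catalytic sites. In immune cells, and in other cells exposed to interferon-gamma, Psmb8, Psmb9 and Psmb10 take the places of Psmb5, Psmb6 and Psmb7 to form the immunoproteasome, which favours peptides suited to presentation on class I molecules. The 19S cap holds the Psmc ATPases, which unfold substrates, and the Psmd subunits, which bind and remove ubiquitin or hold the lid together. Psme1 and Psme2 form the interferon-induced activator PA28, Psme3 and Psme4 are nuclear activators, and Psmf1 is the inhibitor PI31. Kidney tubule cells carry mainly the constitutive core, and the transcription factor NRF1 (Nfe2l1) raises subunit genes together when proteasome activity is short.

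The sequences before the gene starts are shown because subunit genes are known for moving together through shared elements. RefSeq promoter sequences of build GRCm38.p6 were matched for 39 of the 46 genes, and the 250 bases before each start were searched on both strands. The letters TGACNNNGC, the core of the antioxidant response element that NRF1 and NRF2 read, were found in Psmb5, Psmb6, Psmc6, Psmd9 and Psmd12, which is 5 of 39 or 12.8%, against 10.2% of the 32851 promoters searched. CCAAT was found in 15 of 39 or 38.5%, against 33.8%. The 9 letters GAAANNGAA of interferon elements were found in Psmb3, Psmd4 and Psmd9, which is 7.69% against 7.13%, and TTCNNNGAA of heat shock elements in Psmb8 alone, which is 2.56% against 7.02%. Psmb5, Psmb6 and Psmd9 are printed as genes that hold TGACNNNGC, and Psmd11 as the gene with the largest fall under normoxia, which holds none of the 4 motifs in the stretch shown. Capitals mark a motif and each run reads 5′ to 3′ on the strand of the gene.
Psmb5, chr14:54618023-54618222, minus strand: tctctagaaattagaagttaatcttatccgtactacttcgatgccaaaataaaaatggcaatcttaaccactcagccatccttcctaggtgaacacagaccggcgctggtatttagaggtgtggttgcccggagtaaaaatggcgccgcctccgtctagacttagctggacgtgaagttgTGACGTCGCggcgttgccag
Psmb6, chr11:70525157-70525356, plus strand: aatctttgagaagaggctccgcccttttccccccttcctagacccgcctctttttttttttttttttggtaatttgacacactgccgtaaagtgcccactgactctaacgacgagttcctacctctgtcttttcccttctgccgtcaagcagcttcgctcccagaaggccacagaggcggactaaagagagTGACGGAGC
Psmd9, chr5:123227990-123228189, plus strand: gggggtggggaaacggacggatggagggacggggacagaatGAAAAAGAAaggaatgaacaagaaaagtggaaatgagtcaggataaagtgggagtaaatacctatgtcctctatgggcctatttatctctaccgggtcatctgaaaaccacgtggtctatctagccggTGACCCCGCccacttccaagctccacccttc
Psmd11, chr11:80428415-80428614, plus strand: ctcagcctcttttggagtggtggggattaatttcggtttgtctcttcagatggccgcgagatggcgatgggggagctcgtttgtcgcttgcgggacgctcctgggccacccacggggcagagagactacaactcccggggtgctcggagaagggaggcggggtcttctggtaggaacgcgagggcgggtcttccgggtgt
The Psmb5 stretch ends 28 bases before the start, since the bases nearer to it lie in an annotated exon, and the other stretches end at the base before the start. The motif ends 39 bases before the start in Psmb5, 1 base before it in Psmb6 and 23 bases before it in Psmd9, where the second run of capitals, nearer the 5′ end, is GAAANNGAA. The motifs were chosen with results of these data known. A match is a run of letters and not a measured binding site.

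Totals ranged from 12384733 to 25137581 counts apart from 1 library, with a median of 19607361 over all 48. DBA/2J normoxia-hyperoxia replicate 2 had 5619309 counts. The proteasome genes held 18393 to 116583 counts in a library. Levels below are CPM after TMM scaling over all 48 libraries, and changes are log2 fold changes with their standard error (SE) from edgeR's quasi-likelihood test, as the mean over both strains unless a strain is named. A gene was counted as higher or lower at an adjusted p under 0.05. Markers of proximal tubule, the main cell of kidney cortex, were detected in every group, with summed group means of 208 CPM in C57BL/6J under normoxia-hyperoxia to 14178 CPM in the DBA/2J normoxia group. In bulk RNA, fewer cells of a type and less RNA per cell cannot be told apart.

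Per kilobase of exon, the immune catalytic subunits were less abundant in 24 h controls than the constitutive subunits whose places they take. In 24 h control slices the highest level per kilobase of exon was that of Psmc5, a 19S ATPase, at 99.6 ± 3.81 CPM per kb in C57BL/6J and 103 ± 12.8 CPM per kb in DBA/2J (SD, n = 3). Psmb5 stood second in C57BL/6J at 92.7 ± 5.43 CPM per kb. This order depends on the length of annotated exons. That length was 1.39 kb for Psmc5 and 0.899 kb for Psmb5, but 3.38 kb for Psmb8 and 3.66 kb for Psmb9. The immune catalytic Psmb8 was at 8.803 ± 1.32 CPM per kb and Psmb9 at 2.06 ± 0.518 CPM per kb in the same C57BL/6J slices (SD, n = 3), where Psmb6 was at 60.1 ± 0.516 CPM per kb. The gap was narrower for Psmb10, at 7.91 ± 1.43 CPM per kb beside 31.9 ± 0.866 CPM per kb for Psmb7. The 46 genes together took 0.513 ± 0.0140% of all counts in C57BL/6J and 0.532 ± 0.0214% in DBA/2J 24 h controls, against 0.316 ± 0.0166% and 0.370 ± 0.00350% at 6 h (SD, n = 3). The share was 0.301 ± 0.0155% and 0.361 ± 0.0217% under normoxia and 0.322 ± 0.0220% and 0.331 ± 0.00369% under normoxia-hyperoxia. Genes of the mitochondrial genome took 6.82% and 3.52% of counts in the 24 h controls of the C57BL/6J and DBA/2J strains, and 23.9% and 12.3% under normoxia. Without those genes in the total, the shares were 0.550% and 0.552% in 24 h controls, 0.374% and 0.403% in 6 h controls, 0.395% and 0.412% under normoxia, and 0.375% and 0.384% under normoxia-hyperoxia.

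**Figure D1:**
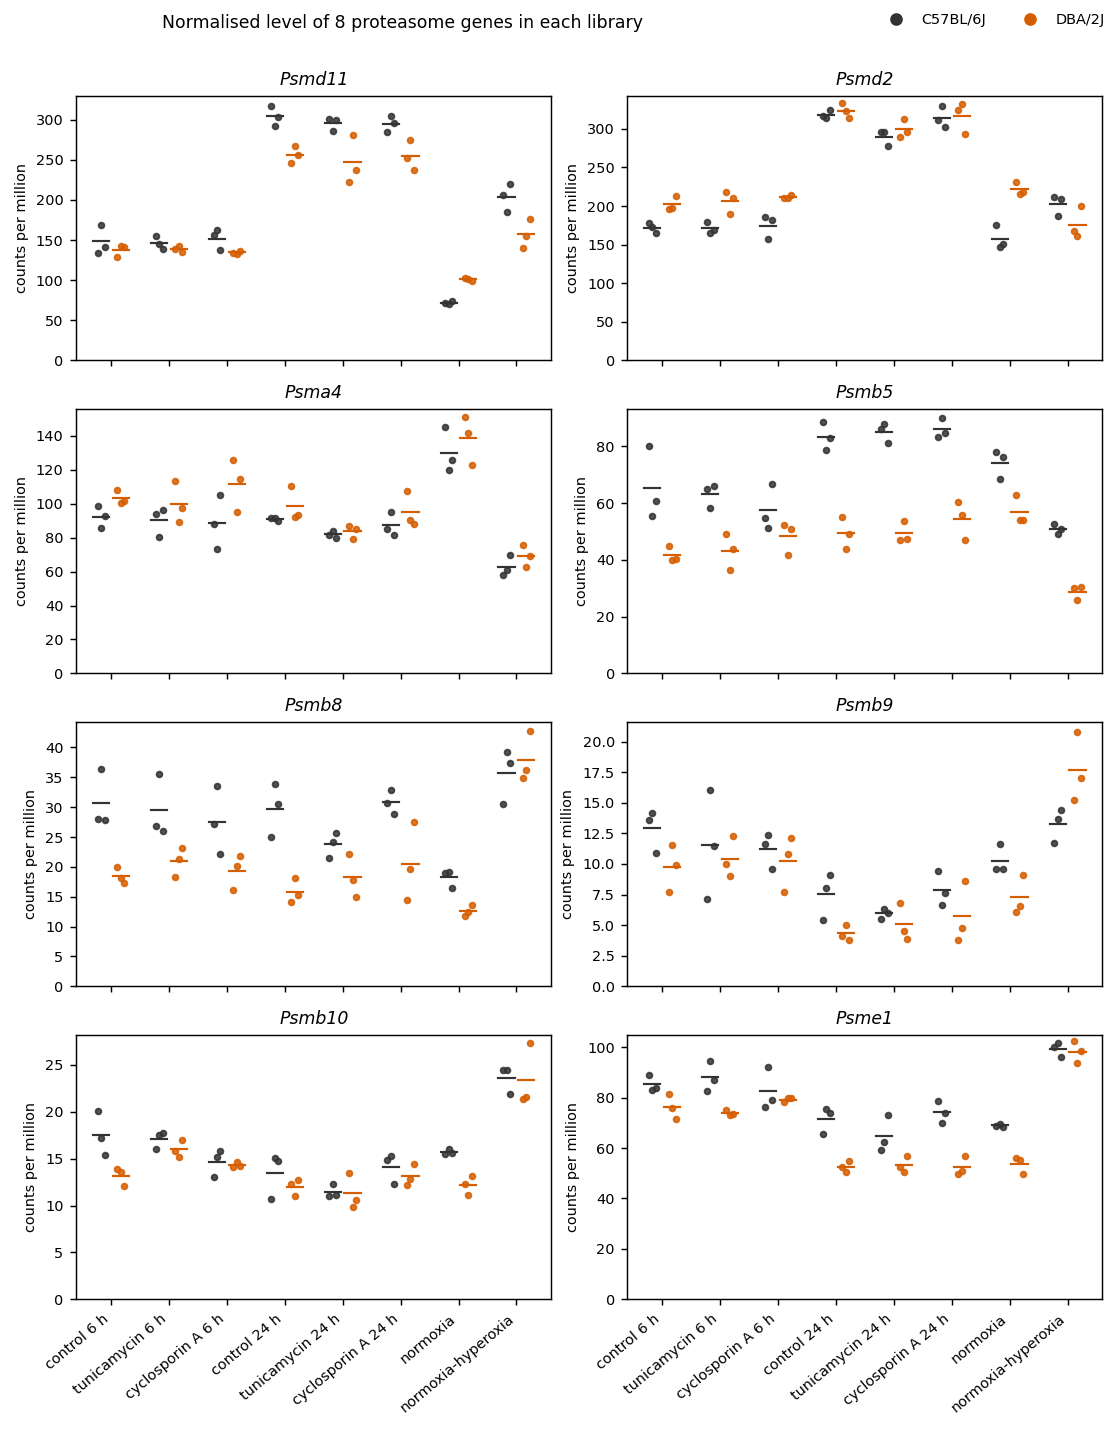
Level of 8 proteasome genes in each of the 48 libraries, as TMM-normalised CPM on linear axes that start at 0, for C57BL/6J (dark) and DBA/2J (orange) in the 8 conditions. Points are libraries and bars are group means; Psmd11 stands near 300 CPM in C57BL/6J 24 h slices and near 72 CPM under normoxia, and Psmb8 is lower in DBA/2J than in C57BL/6J controls but not under normoxia-hyperoxia.

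Neither drug moved the proteasome genes by much. At 6 h, edgeR called 0 of the 44 tested genes with tunicamycin and 0 with cyclosporin A, against 0% of all genes in both comparisons, and none of the 44 had an unadjusted p under 0.05 in either. At 24 h with cyclosporin A, 0 of 44 were called, against 0% of all genes, 3 had an unadjusted p under 0.05 and the smallest adjusted p was 0.656. The DESeq2 Wald test also called 0 in these 3 comparisons, against 0%, 0.308% and 0.13% of all genes. The strain interactions of the 4 drug comparisons called 0 of 44 with edgeR, each against 0% of all genes, and 0 of 44 with DESeq2. Unadjusted p-values under 0.05 in these interactions numbered 0 for tunicamycin and 1 for cyclosporin A at 6 h, and 2 and 0 at 24 h.

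With tunicamycin at 24 h, 1 of the 44 genes was called, against 1.38% of all genes. This was Psmc6, an ATPase of the 19S base. Psmc6 stood at 140, 138 and 136 CPM in C57BL/6J 24 h controls and at 121, 127 and 125 CPM with tunicamycin. In DBA/2J it stood at 144, 131 and 136 CPM in controls and at 113, 121 and 117 CPM with tunicamycin. Every treated library lay below every control of its strain. The change was -0.18 (SE 0.0408, adjusted p = 0.0436, edgeR). Psmc6 was 1 of 7 proteasome genes whose treated libraries lay below all controls in both strains, out of 44 against 1.63% of all genes; the others were Psma4, Psmb1, Psmc1, Psmd1, Psmd2 and Psme4. The largest of the 7 was Psma4 at -0.19, which was not called. Fold changes were negative for 40 of the 44 genes, with a median of -0.09 against 0.01 over all genes tested. The catalytic subunits Psmb5 (0.02, adjusted p = 0.948), Psmb6 (-0.01, adjusted p = 0.970) and Psmb7 (-0.13, adjusted p = 0.238) were not called by edgeR. Neither were the immune subunits Psmb8 (-0.06), Psmb9 (-0.05) and Psmb10 (-0.16), the activators Psme1 (-0.06), Psme2 (-0.06), Psme3 (-0.01) and Psme4 (-0.16) or the inhibitor Psmf1 (-0.04). The DESeq2 Wald test called 6 of the 44 lower, against 1.43% of all genes, and 0 higher. The Psmc6 call held in 5 of 19 alternatives. It was lost with the replicate number as a block (adjusted p = 0.0682, edgeR), with no filter on low counts (0.106), in a single fit of all 48 libraries (0.166) and on leaving out any library but DBA/2J 24 h control replicate 2, over adjusted p-values of 0.00128 to 0.166 in all alternatives run.

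Between 6 h and 24 h in culture without drug, most 19S cap genes rose and Psmb9 and Psme1 of the immune group fell, while the call of Psmb10 as lower depended on the setting. Of the 44 genes, 27 were higher at 24 h, against 34.7% of all genes, and 3 were lower, against 37.4%. The median change of the 44 was 0.27 and that of all genes tested was -0.02. All 6 of the 19S ATPases and 9 of the 11 non-ATPases were higher, with medians of 0.47 and 0.64. The alpha ring had 6 of 7 higher with a median of 0.30, and the structural beta subunits 2 of 4 with a median of 0.19.

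Psmd11, a lid subunit of the 19S cap, changed most. Its level was 134, 169 and 142 CPM at 6 h and 317, 292 and 303 CPM at 24 h in C57BL/6J controls. In DBA/2J controls it was 129, 143 and 141 CPM at 6 h and 245, 267 and 256 CPM at 24 h. The groups did not overlap in either strain, and the change was 0.98 (SE 0.0678, adjusted p = 9.25e-09, edgeR). Psmd2, the large scaffold subunit of the 19S base, stood at 177, 173 and 166 CPM at 6 h and 317, 314 and 324 CPM at 24 h in C57BL/6J, and at 196, 198 and 213 CPM and 333, 324 and 314 CPM in DBA/2J. It was higher at 24 h by 0.80 (SE 0.0561, adjusted p = 1.08e-08). Psmd7, another lid subunit, rose by 0.80 (SE 0.0646) and the ATPase Psmc1 by 0.69 (SE 0.0573). The inhibitor Psmf1 and the nuclear activator Psme3 each rose by 0.64.

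The catalytic subunits moved less. Psmb5, which carries the chymotrypsin-like site, rose by 0.31 (SE 0.0896, adjusted p = 0.00571, edgeR). Psmb6 at -0.09 and Psmb7 at -0.04 were not called, and Psmb7 was called higher, at 0.17, when libraries were scaled by their totals alone. Psmb9 of the immune core stood at 13.6, 14.2 and 10.9 CPM at 6 h and at 5.43, 8.01 and 9.13 CPM at 24 h in C57BL/6J. In DBA/2J it stood at 7.74, 11.5 and 9.92 CPM at 6 h and at 4.13, 5.04 and 3.82 CPM at 24 h. All 24 h libraries lay below all 6 h libraries of their strain, with a change of -0.96 (SE 0.147, adjusted p = 3.44e-05, edgeR). The PA28 subunit Psme1 was lower, at -0.37 (SE 0.0596, adjusted p = 4.77e-05), while its partner Psme2 at 0.14 (adjusted p = 0.0918, edgeR) was not called and Psme4 stood at 0.04. Psme1 was called lower in all 19 alternatives, over values of -0.40 to -0.16. Psme2 was called higher in 4 of 19 alternatives, at 0.35 with library totals alone. Psmb10 was lower, at -0.24 (SE 0.104, adjusted p = 0.0487), a call that held in 7 of 19 alternatives, and Psmb8 at -0.12 was not called. Psmb10 was at -0.41 in C57BL/6J, and its interaction, DBA/2J minus C57BL/6J, was 0.33 and not called. Immune cell markers moved in the same slices. Of 12 such markers, 7 were lower and 2 (Cd68 and Itgam) higher at 24 h, and their summed level was 561 to 781 CPM at 6 h and 234 to 412 CPM at 24 h over both strains. Tubule markers moved more. All 7 proximal tubule markers were lower at 24 h, with summed group means of 3932 CPM at 6 h and 454 CPM at 24 h in C57BL/6J and of 6326 CPM and 1301 CPM in DBA/2J. All 4 loop and distal tubule markers were lower too, from 13901 to 3781 CPM in C57BL/6J and, for DBA/2J, from 9101 to 3424 CPM, as were all 3 collecting duct, both podocyte and 2 of 3 endothelial markers. The part of these cell types in the changes of the proteasome genes was not tested. No strain interaction was called, 0 of 44 against 0.69% of all genes, with none at an unadjusted p under 0.05 and 0 by DESeq2.

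Scaling by library totals alone, without composition factors, moved the median of all genes from -0.02 to 0.19 in this comparison and gave 35 proteasome genes higher, against 44.7% of all genes, and 2 lower, against 29.3%. Psmd11 was called higher in all 19 alternatives, between 0.94 and 1.199.

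**Figure D2:**
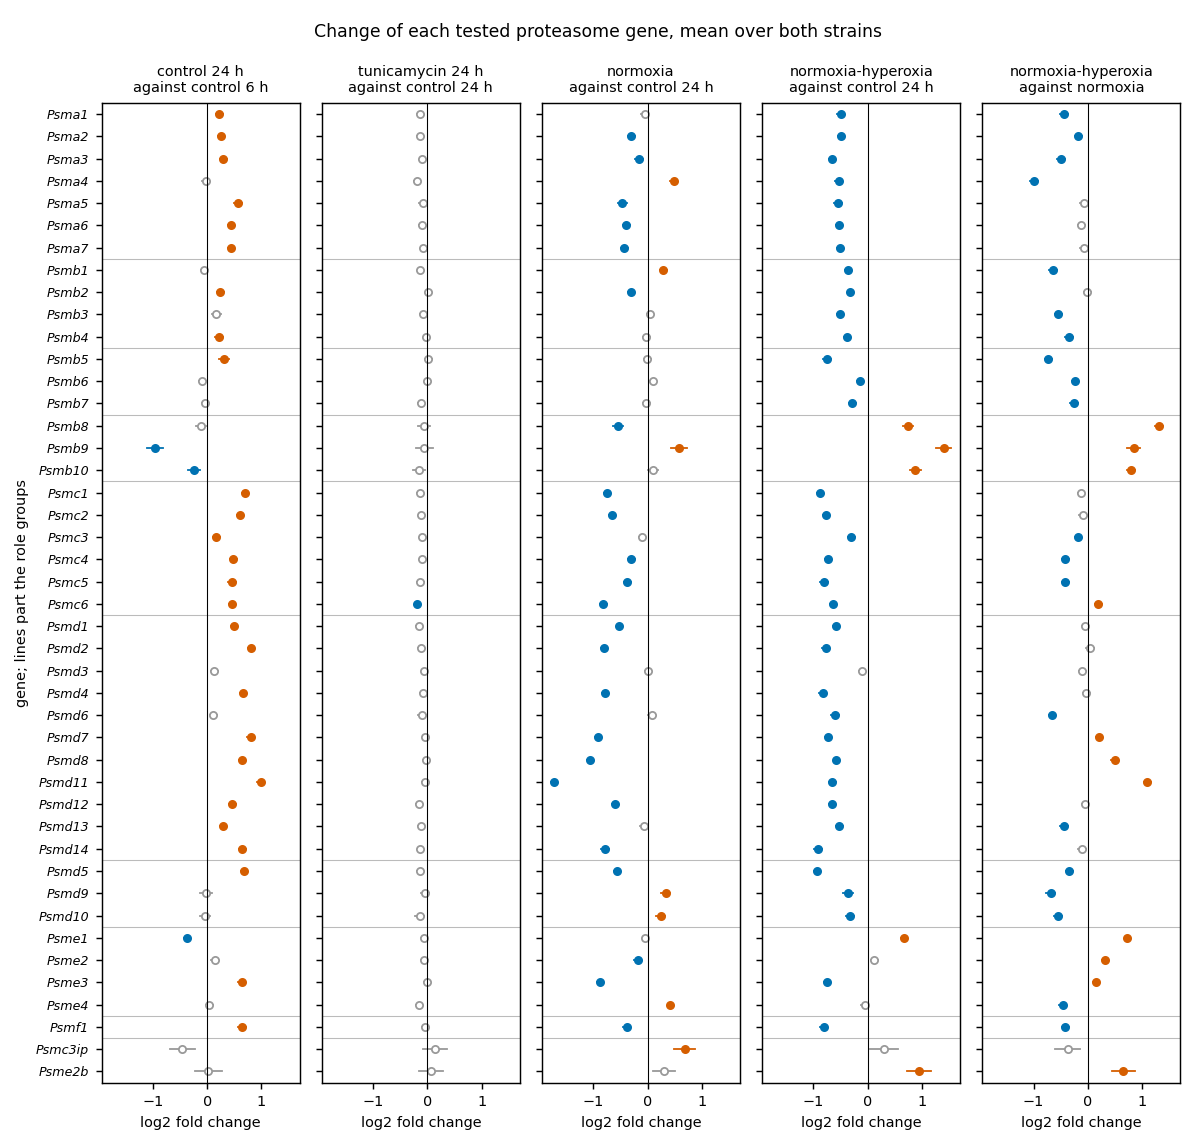
Log2 fold change (x axis, mean over both strains) of each of the 44 tested proteasome genes in 5 comparisons, ordered by role from the alpha ring to the activators and the inhibitor, with bars of 1 SE. Filled points passed an adjusted p under 0.05 (orange higher, blue lower) and open points did not; the 3 immune subunits stand to the right under normoxia-hyperoxia, where nearly all constitutive subunits stand to the left.

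Under normoxia most cap genes were lower than in 24 h controls, and the core changed unevenly. Of the 44 genes, 7 were higher, against 42.4% of all genes, and 24 were lower, against 39.7%. The median of the 44 was -0.24, against 0.05 over all genes tested. Scaled by library totals alone, 2 were higher and 35 lower, against 34.2% and 48.1% of all genes, with the median of all genes at -0.22. Of the 19S non-ATPases 8 of 11 were lower and 0 higher, with a median of -0.78. Of the ATPases 5 of 6 were lower, with a median of -0.51, and of the alpha ring 5 of 7 were lower and 1 higher.

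Psmd11 was again the gene with the largest change. It stood at 71.9, 69.9 and 74.2 CPM in C57BL/6J and at 103, 101 and 99.3 CPM in DBA/2J under normoxia, below all the 24 h control values given above and also below all those of the 6 h controls. The change against 24 h controls was -1.73 (SE 0.0482, adjusted p = 3.01e-14, edgeR). Psmd8, a lid subunit, was lower, at -1.06 (SE 0.0555), Psmd7 at -0.92 (SE 0.0607) and Psme3 at -0.88 (SE 0.0505). The constitutive catalytic subunits Psmb5 (-0.00), Psmb6 (0.10) and Psmb7 (-0.02) were not called. With library totals alone all 3 were called lower, Psmb5 at -0.28, Psmb6 at -0.17 and Psmb7 at -0.29. Psmb6 was called higher, at 0.13 to 0.14, without DBA/2J 24 h control replicate 1, C57BL/6J normoxia replicate 2 or DBA/2J normoxia replicate 3. Psma4, an alpha ring subunit, went the other way. It stood at 91.4, 91.5 and 89.7 CPM in C57BL/6J and at 110, 92.3 and 93.3 CPM in DBA/2J 24 h controls, and at 145, 120 and 126 CPM and 151, 142 and 123 CPM under normoxia. The groups did not overlap, and the change was 0.48 (SE 0.0678, adjusted p = 6.95e-06), or 0.21 with library totals alone.

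The immune subunits did not move together under normoxia. Psmb8 was lower, at -0.54 (SE 0.0923, adjusted p = 5.25e-05, edgeR), Psmb9 was higher by 0.58 (SE 0.145, adjusted p = 0.00173) and Psmb10 at 0.10 was not called. With library totals alone Psmb9 was at 0.30, with an adjusted p of 0.0719. The list of immune cell markers had 9 of 12 higher and 2 lower (Cd68 and Itgam), with sums of 515 to 786 CPM over the libraries of both strains against 234 to 412 CPM in 24 h controls. Proximal tubule markers were higher in 7 of 7, with summed group means going from 454 to 6720 CPM in C57BL/6J and, for DBA/2J, from 1301 to 14178 CPM, and loop and distal tubule markers in 4 of 4. Their part in the changes of the proteasome genes was not tested. Psme4, the activator PA200, was higher by 0.42 (SE 0.0469), or 0.15 with library totals alone. Psme2 was lower, at -0.18 (SE 0.0656), a call lost without C57BL/6J 24 h control replicate 3, DBA/2J 24 h control replicate 1, C57BL/6J normoxia replicate 2 or DBA/2J normoxia replicate 3. Psme1 at -0.04 was not called (it was called lower, at -0.31, with library totals alone) and Psmf1 was lower, at -0.38 (SE 0.0629). Among matches of the rule that are no subunits, Psmc3ip was higher by 0.68 (SE 0.201). That call held in 18 of 19 alternatives, over values of 0.41 to 0.84.

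The response to normoxia differed between the strains for a set of these genes. The interaction, DBA/2J minus C57BL/6J, was positive and called for 15 of 44, against 10.1% of all genes, and negative for 0, against 6.88%. Psme4 stood at 113, 105 and 114 CPM in C57BL/6J 24 h controls and 119, 110 and 117 CPM under normoxia. In DBA/2J it stood at 98.3, 93.9 and 94.7 CPM in controls and 178, 171 and 164 CPM under normoxia. It was higher in all DBA/2J normoxia libraries than in their controls, while the C57BL/6J groups overlapped, and the interaction was 0.77 (SE 0.0937, adjusted p = 0.000136, edgeR). Psmd11 was lower, at -2.10 in C57BL/6J and at -1.37 in DBA/2J, with an interaction of 0.73 (SE 0.0942, adjusted p = 0.000196). Psmc2 had an interaction of 0.55 (SE 0.1096, adjusted p = 0.00357) and Psmd2 one of 0.46 (SE 0.1103, adjusted p = 0.0107). The count was 8 with RLE factors, against 8.4% of all genes, 5 with library totals alone, against 5.56%, 5 without mitochondrial genes, against 6.59%, and 6 in a single fit of all 48 libraries, against 5.1%. It was 3 without C57BL/6J 24 h control replicate 3 or DBA/2J 24 h control replicate 2 or 3, 6 without C57BL/6J control replicate 2 or DBA/2J control replicate 1, and 5 without replicate 2 or 3 of C57BL/6J or replicate 1 or 2 of DBA/2J normoxia. Psme4, Psmd11 and Psmc2 were called in all 19 alternatives.

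Compared with 6 h controls, with which the normoxia slices shared no treatment time, the same genes lay closer to balance. In the comparison of normoxia with 6 h controls, 7 of 44 were higher, against 32.9% of all genes, and 10 were lower, against 32.9%, with a median of -0.01. Psmd11 was lower, at -0.79 (SE 0.0678), Psmb8 at -0.70 (SE 0.0862), Psmd8 and Psme1 at -0.46 each and Psmb9 at -0.42 (SE 0.130, adjusted p = 0.00995, edgeR). Psme3 was lower too, at -0.29. Psme4 was higher by 0.42, Psma4 by 0.41, Psmb5 and Psmd9 by 0.27 each and Psmf1 by 0.21. The Psmd9 call was lost with library totals alone and without C57BL/6J normoxia replicate 1, and that of Psmf1 without DBA/2J 6 h control replicate 2. Psmb6 at -0.03, Psmb7 at -0.10, Psmb10 at -0.19 and Psme2 at -0.09 were not called. Scaled by library totals alone, 4 were higher and 12 lower, against 31.6% and 33.5% of all genes. The interaction was called for Psmd11 alone, 1 of 44 against 3.66% of all genes, at 0.64 (SE 0.135, adjusted p = 0.0190, edgeR). That call was lost without DBA/2J 6 h control replicate 1, C57BL/6J normoxia replicate 2 or DBA/2J normoxia replicate 1 or 2, and 3 genes were called without C57BL/6J 6 h control replicate 1. With the replicate number as a block, more genes were called both in this comparison and in its interaction. Proximal tubule markers were higher in 5 of 7 against 6 h controls, with summed group means of 6720 CPM against 3932 CPM in C57BL/6J and 14178 CPM against 6326 CPM in DBA/2J. All 3 endothelial, both podocyte and both stromal markers, 2 of 3 collecting duct and 2 of 4 loop and distal tubule markers were lower. Immune cell markers were higher in 5 of 12 and lower in 3, and the part of these cell types was not tested. The 24 h and 6 h controls served in several of these comparisons, so their values are not independent of each other.

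Under normoxia-hyperoxia most constitutive proteasome genes were lower and the 3 immune catalytic subunits higher than in 24 h controls. No fit set this condition against 6 h controls, from which the 24 h controls had themselves moved. Of the 44 genes, 35 were lower, against 34.1% of all genes, and 5 were higher, against 34.1%. The median was -0.52, against 0.00 over all genes tested. All 7 alpha subunits, all 4 structural and all 3 constitutive catalytic beta subunits, all 6 ATPases and 10 of the 11 non-ATPases were lower, with medians of -0.52, -0.37, -0.28, -0.75 and -0.65. Scaled by library totals alone, 37 were lower, against 42.6% of all genes, and 5 higher, against 27.2%. Without DBA/2J normoxia-hyperoxia replicate 2, the library of lowest depth, the counts were again 35 and 5.

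The largest falls were those of Psmd5, an assembly chaperone of the 19S base, at -0.93 (SE 0.0566), Psmd14, the subunit that cuts ubiquitin chains from substrates, at -0.91 (SE 0.0714), Psmc1 at -0.88 (SE 0.0531) and Psmd4, a ubiquitin receptor, at -0.82 (SE 0.0644). Psmb5 stood at 88.5, 78.7 and 82.8 CPM in C57BL/6J 24 h controls and at 52.6, 49.2 and 50.7 CPM under normoxia-hyperoxia. In DBA/2J it stood at 55.2, 43.7 and 49.0 CPM and at 30.01, 26 and 30.3 CPM. The groups did not overlap in either strain, and Psmb5 was lower, at -0.75 (SE 0.0663, adjusted p = 1.11e-07, edgeR). The other catalytic subunits fell less, Psmb7 at -0.28 (SE 0.0657) and Psmb6 at -0.15 (SE 0.0507, adjusted p = 0.0163). The Psmb6 value was -0.32 with library totals alone, and its call was lost with no filter on low counts and in a single fit of all 48 libraries. Psmf1 was lower, at -0.81 and Psme3 at -0.75, and Psme4 at -0.05 and Psme2 at 0.12 were not called. The 5 genes that hold TGACNNNGC were all lower, from -0.15 for Psmb6 to -0.75 for Psmb5, as were most of the proteasome genes tested. The part of the motif was not tested. Psmd11 was lower in both strains, at -0.60 in C57BL/6J and -0.70 in DBA/2J.

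The genes that rose were the 3 immune catalytic subunits, Psme1 and Psme2b. Psmb8, which replaces Psmb5, stood at 25.0, 33.8 and 30.5 CPM in C57BL/6J 24 h controls and at 30.5, 39.2 and 37.4 CPM under normoxia-hyperoxia, and these groups overlapped. In DBA/2J it stood at 14.1, 18.2 and 15.3 CPM in controls and at 34.9, 36.3 and 42.7 CPM, without overlap. The mean change was 0.75 (SE 0.0923, adjusted p = 3.78e-06, edgeR). Psmb9, which replaces Psmb6, stood at 11.7, 13.7 and 14.4 CPM in C57BL/6J and at 15.2, 20.8 and 17.1 CPM in the DBA/2J normoxia-hyperoxia libraries, above all 24 h control values of its strain, and was higher by 1.41 (SE 0.136, adjusted p = 2.97e-07). In C57BL/6J the normoxia-hyperoxia libraries overlapped the 6 h controls for both Psmb8 and Psmb9. Psmb10, which replaces Psmb7, stood at 10.7, 15.04 and 14.8 CPM in C57BL/6J and at 12.3, 10.98 and 12.7 CPM in DBA/2J controls, and at 24.4, 24.5 and 21.9 CPM and 21.4, 21.6 and 27.3 CPM under normoxia-hyperoxia. Both strains were without overlap, and Psmb10 was higher by 0.88 (SE 0.0979, adjusted p = 1.28e-06). Psme1 was higher by 0.68 (SE 0.0547) and the copy Psme2b by 0.95 (SE 0.214).

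The rise of Psmb8 was larger in DBA/2J, and for Psmb9 the same test depended on the setting. The interaction was called for 2 of 44 genes in the positive direction, against 0.95% of all genes, and for 0 in the negative direction, against 0.481%. Psmb8 rose by 1.26 in DBA/2J and stood at 0.24 in C57BL/6J, where it was not called, and the interaction was 1.02 (SE 0.184, adjusted p = 0.0135, edgeR). It was called in all 19 alternatives. Psmb9 changed by 2.01 in DBA/2J and 0.80 in C57BL/6J, with an interaction of 1.202 (SE 0.271, adjusted p = 0.0430). The Psmb9 call held in 9 of 19 alternatives. It was lost in a single fit of all 48 libraries (adjusted p = 0.0654, edgeR), and without C57BL/6J 24 h control replicate 2 or 3, DBA/2J 24 h control replicate 1 or 3, any C57BL/6J normoxia-hyperoxia library, or DBA/2J normoxia-hyperoxia replicate 2 or 3, which leaves a count of 1.

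Immune cell markers moved with these genes. In the normoxia-hyperoxia comparison 10 of 12 were higher and 2 (Cd68 and Itgam) lower than in 24 h controls. Their summed level was 875 to 1203 CPM in C57BL/6J libraries and 1615 to 1816 CPM in DBA/2J libraries, against 234 to 365 CPM and 316 to 412 CPM in 24 h controls. The T cell gene Cd3e had a group mean of 1.08 ± 0.409 CPM in C57BL/6J and one of 4.58 ± 1.55 CPM in DBA/2J (SD, n = 3), so it was not at 0. Genes of antigen processing and interferon control moved too, with 8 of 12 higher and 0 lower, led by the transcription factors Irf1 at 1.99 (SE 0.108) and Nlrc5 at 1.66 (SE 0.126). Tubule markers moved as well. Of 7 proximal tubule markers 5 were lower, with summed group means going from 454 to 208 CPM in C57BL/6J and, for DBA/2J, from 1301 to 671 CPM. All 4 loop and distal tubule markers were higher, from 3781 to 17572 CPM in C57BL/6J and, for DBA/2J, from 3424 to 13298 CPM. All 3 collecting duct markers were higher, from 157 to 607 CPM and from 121 to 430 CPM. The part of these cell types in the rise of the immune subunits or in the fall of the constitutive ones was not tested.

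Set against the subunit it replaces, each immune subunit took a larger share of the mRNA under normoxia-hyperoxia than in 24 h controls in both strains. Per kilobase of exon, Psmb8 amounted to 9.57 ± 1.97 per 100 Psmb5 (SD, n = 3) in C57BL/6J and 8.72 ± 2.17 in DBA/2J 24 h controls. Under normoxia-hyperoxia the ratio was 18.7 ± 2.97 and 35.2 ± 3.71. Under normoxia it was 6.58 ± 0.861 and 5.94 ± 0.840. The DBA/2J ratio under normoxia-hyperoxia lay above all C57BL/6J values, with 30.9 as its lowest and 21.2 as the highest in C57BL/6J. Psmb9 per 100 Psmb6 went from 3.42 ± 0.883 in C57BL/6J and 2.15 ± 0.418 in DBA/2J 24 h controls to 6.43 ± 0.708 and 10.02 ± 2.11. Psmb10 per 100 Psmb7 went from 24.9 ± 4.96 and 22.7 ± 1.54 to 49.3 ± 8.27 and 57.8 ± 7.62. At 24 h with tunicamycin the 3 ratios were 7.45 ± 0.891, 2.68 ± 0.197 and 22.9 ± 0.717 in C57BL/6J, and all 24 h drug groups overlapped their controls. At 6 h the DBA/2J tunicamycin libraries lay above their controls for Psmb10 per 100 Psmb7, at 24.3 to 29.5 against 20.4 to 23.3. The absolute ratios depend on gene length, and with the longest transcript in place of the exon union the Psmb8 ratios under normoxia-hyperoxia read 33.2 and 62.4. These ratios are descriptions without a test.

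**Figure D3:**
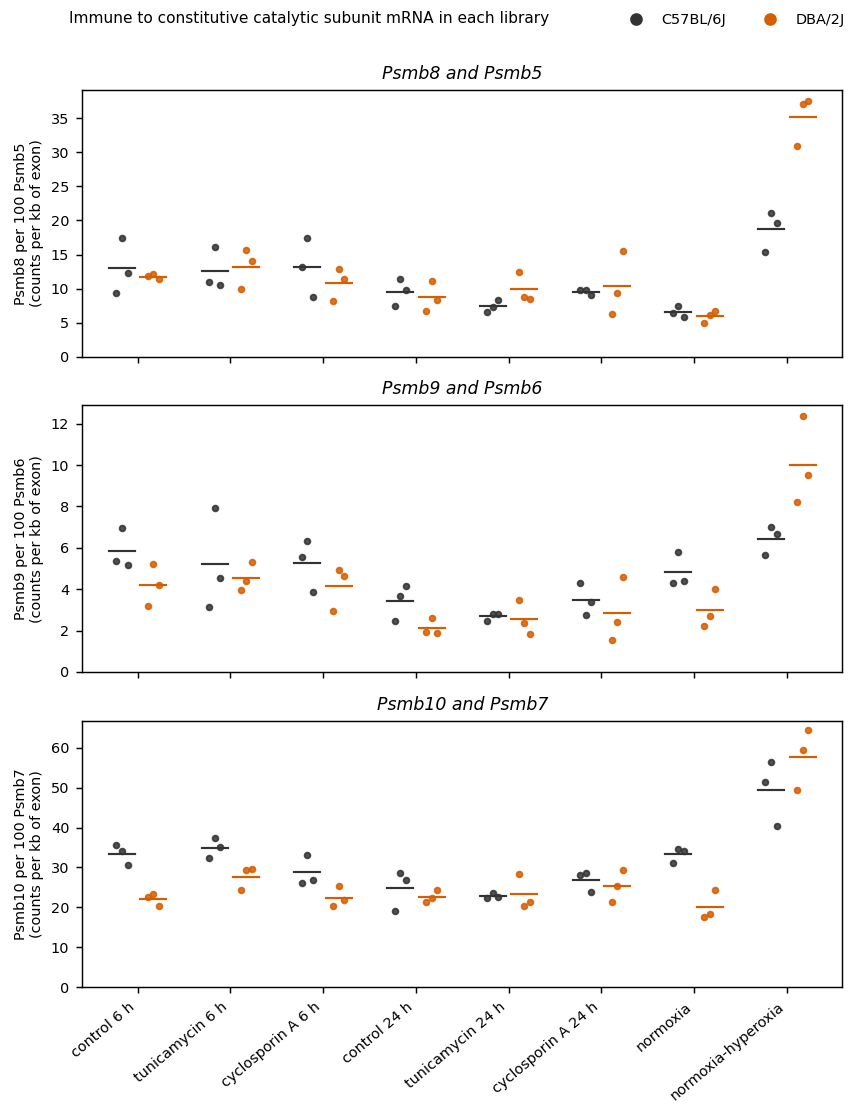
Immune catalytic subunit mRNA per 100 of the constitutive subunit whose place it takes, each as counts per kilobase of exon, in each library (points) with group means (bars), for C57BL/6J (dark) and DBA/2J (orange) on linear axes from 0. The normoxia-hyperoxia group means stand above those of the other conditions for all 3 pairs, while single C57BL/6J libraries overlap (for Psmb8 per 100 Psmb5 the lowest is 15.4 and the highest 6 h control 17.4), and DBA/2J reaches a mean of 35.2 for Psmb8 per 100 Psmb5 against 18.7 in C57BL/6J.

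The direct comparison of normoxia-hyperoxia with normoxia, 2 conditions of the same titled duration, had Psmb8 and Psmd11 as its largest rises. Of the 44 genes, 11 were higher, against 37% of all genes, and 20 were lower, against 36.5%. The median was -0.12, against 0.02 over all genes tested. Psmb8 stood at 19.03, 19.2 and 16.5 CPM in C57BL/6J and at 11.8, 12.5 and 13.6 CPM in DBA/2J under normoxia, below all normoxia-hyperoxia values given above. It was higher under normoxia-hyperoxia by 1.31 (SE 0.0775, adjusted p = 5.42e-10, edgeR). Psmd11 was higher by 1.10 (SE 0.0626), at 207, 185 and 220 CPM in C57BL/6J and at 140, 156 and 176 CPM in DBA/2J. Psmb9 was higher by 0.84 (SE 0.118), Psmb10 by 0.80 (SE 0.0763), Psme1 by 0.73 (SE 0.0509) and Psme2 by 0.32 (SE 0.0584). The other higher genes were the lid subunits Psmd8 at 0.49 and Psmd7 at 0.21, the ATPase Psmc6 at 0.20, the copy Psme2b at 0.65 and Psme3 at 0.15. The Psme3 call held in 17 of 19 alternatives and was lost with no filter on low counts and without C57BL/6J normoxia-hyperoxia replicate 1.

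Psma4 showed the largest fall. Its level was 57.8, 61.0 and 69.7 CPM in C57BL/6J and at 75.7, 62.5 and 69.2 CPM in the DBA/2J normoxia-hyperoxia libraries, below every normoxia library, and the change was -0.997 (SE 0.0732, adjusted p = 6.53e-09, edgeR). Psmb5 was lower, at -0.73 (SE 0.0618), the chaperone Psmd9 at -0.68 (SE 0.0813), Psmd6 at -0.66 (SE 0.0626) and Psme4 at -0.46 (SE 0.0617). The other constitutive catalytic subunits Psmb6 at -0.24 and Psmb7 at -0.25 were lower, as was Psmf1 at -0.41. The Psmb7 call held in 18 of 19 alternatives, over values of -0.31 to -0.16, and that of Psmb6 in all 19, over -0.28 to -0.15. All 3 chaperones were lower, and of the alpha ring 4 of 7. Without DBA/2J normoxia-hyperoxia replicate 2 the counts were again 11 and 20. Immune cell markers were higher in 8 of 12, with 0 lower, and the antigen processing list in 10 of 12. All 7 proximal tubule markers were lower, with a median of -4.54 and summed group means of 208 CPM against 6720 CPM in C57BL/6J and 671 CPM against 14178 CPM in DBA/2J. All 3 collecting duct and all 3 endothelial markers were higher. Their part in these changes was not tested.

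The strains differed in this contrast for 20 genes. The interaction was negative for 17 of 44, against 11% of all genes, and positive for 3, Psmb9, Psmb8 and Psme1, against 7.20%. Psmd11 rose by 1.52 in C57BL/6J and by 0.68 in DBA/2J, with an interaction of -0.84 (SE 0.124, adjusted p = 0.000582, edgeR). Psme4 changed by -0.81 in DBA/2J and stood at -0.12 in C57BL/6J, with an interaction of -0.69 (SE 0.123, adjusted p = 0.00187). Psmd2 had an interaction of -0.68 (SE 0.133, adjusted p = 0.00348) and Psme3 one of -0.53 (SE 0.0940, adjusted p = 0.00196). With library totals alone 4 were positive and 7 negative, against 10.1% and 4.33% of all genes, with the median of all genes at 0.12 in place of -0.05. The count was 12 without C57BL/6J normoxia replicate 2, C57BL/6J normoxia-hyperoxia replicate 3 or DBA/2J normoxia-hyperoxia replicate 2, and 13 without C57BL/6J normoxia-hyperoxia replicate 1.

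Psmb5 and Psmb8, which take the same place in the core, were both lower in DBA/2J than in C57BL/6J controls. At 6 h, 3 of 44 genes were higher in DBA/2J, against 13.6% of all genes, and 3 lower, against 12.7%. At 24 h 3 were higher, against 13.9%, and 6 lower, against 8.27%. Psmb5 stood at 80.2, 55.6 and 60.7 CPM in C57BL/6J and at 44.98, 39.9 and 40.2 CPM in DBA/2J 6 h controls, without overlap. The difference, DBA/2J minus C57BL/6J, was -0.71 (SE 0.128, adjusted p = 0.00108, edgeR) at 6 h and -0.72 (SE 0.127, adjusted p = 0.000871) at 24 h. Psmb8 stood at 28, 36.4 and 27.9 CPM in C57BL/6J and at 19.9, 18.2 and 17.2 CPM in DBA/2J at 6 h, also without overlap. Its difference was -0.79 (SE 0.141, adjusted p = 0.000994) at 6 h and -0.88 (SE 0.142, adjusted p = 0.000474) at 24 h. At 24 h the PA28 pair was lower in DBA/2J too, Psme1 at -0.41 (SE 0.0845, adjusted p = 0.00270) and Psme2 at -0.48 (SE 0.0983, adjusted p = 0.00276). At 6 h Psmd10, a chaperone of the base, was higher by 0.47 (SE 0.133) and Psmc1 by 0.30 (SE 0.0811). The Psmd10 call was lost without C57BL/6J 6 h control replicate 2 or 3 or DBA/2J 6 h control replicate 1 or 3, and that of Psmc1 without DBA/2J 6 h control replicate 2 or 3.

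Of the antigen processing list, 8 of 12 genes were lower in DBA/2J 24 h controls and 0 higher, led by the peptide transporter Tap1 at -1.67 (SE 0.208) and Nlrc5 at -1.51 (SE 0.222), while 5 of 12 immune cell markers were higher and 0 lower. Proximal tubule markers were higher in DBA/2J in 4 of 7 at 6 h and in 7 of 7 at 24 h, with summed group means of 6326 CPM against 3932 CPM and of 1301 CPM against 454 CPM. Endothelial markers were lower in 3 of 3 at 6 h and in 2 of 3 at 24 h. The part of these cell types in the strain differences was not tested. Whether DBA/2J reads map less well to the reference genome was not tested for any of these genes. At 6 h 25 genes were higher and 2 lower with library totals alone, against 22.9% and 7.35% of all genes, where the median of all genes moved from -0.00 to 0.15. DESeq2 gave 8 higher and 3 lower, against 15% and 13.1%. The 6 h count was 18 without C57BL/6J 6 h control replicate 1, 3 without C57BL/6J or DBA/2J control replicate 2 and 2 without DBA/2J control replicate 3. The 24 h count was 5 without C57BL/6J 24 h control replicate 2 and 5, all lower, with no filter on low counts, against 6.11% of all genes.

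Under normoxia the strains differed in most of these genes. In DBA/2J 32 of 44 genes were higher, against 28.3% of all genes, and 5 lower, against 18.5%. All 6 ATPases, all 11 non-ATPases and all 4 structural beta subunits were higher, with medians of 0.41, 0.44 and 0.31, against a median of 0.08 over all genes tested. Psmd10 was higher by 0.64 (SE 0.104, adjusted p = 0.000173, edgeR), Psme4 by 0.59 (SE 0.0866), Psmd7 by 0.56 (SE 0.0878) and Psmc2 by 0.54 (SE 0.0914). The 5 lower genes were Psmb5 (-0.36), Psmb8 (-0.51), Psmb9 (-0.48), Psmb10 (-0.35) and Psme1 (-0.35). In these slices proximal tubule markers were higher in DBA/2J in 6 of 7, with library sums of 13593 to 15146 CPM against 4960 to 7739 CPM in C57BL/6J. Loop and distal tubule markers were lower in 4 of 4, collecting duct markers in 3 of 3, endothelial markers in 2 of 3 and immune cell markers in 5 of 12, and genes of the mitochondrial genome took 12.3% against 23.9% of counts. Their part was not tested. With no filter on low counts 19 were higher and 5 lower, against 11.7% and 12.5% of all genes.

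Under normoxia-hyperoxia few subunits differed between the strains. In DBA/2J 0 of 44 were higher, against 14.3% of all genes, and 4 were lower, against 11.3%. Psmb5 was lower, at -0.78 (SE 0.0895, adjusted p = 1.76e-05, edgeR), the same direction as in the other 3 conditions. Psmd11 was lower, at -0.34 (SE 0.0873, adjusted p = 0.0109), Psma1 at -0.30 (SE 0.0999, adjusted p = 0.0415) and Psme3 at -0.20 (SE 0.0667, adjusted p = 0.0360). The Psmd11 call held in 17 of 19 alternatives, that of Psma1 in 12 and that of Psme3 in 11. Psmb8 at 0.13, Psmb9 at 0.43 and Psmb10 at 0.03 were not called. Immune cell markers were higher in DBA/2J in 10 of 12, with summed group means of 1711 CPM against 1092 CPM, of which Cd74 made 1318 CPM against 844 CPM. Proximal tubule markers were higher in 6 of 7, at 671 CPM against 208 CPM. Their part was not tested. Library totals alone gave 4 higher and 1 lower, against 19.5% and 6.92% of all genes. The count was 2 without DBA/2J normoxia replicate 2, C57BL/6J normoxia-hyperoxia replicate 1 or 3, or any of the DBA/2J normoxia-hyperoxia libraries.

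**Figure D4:**
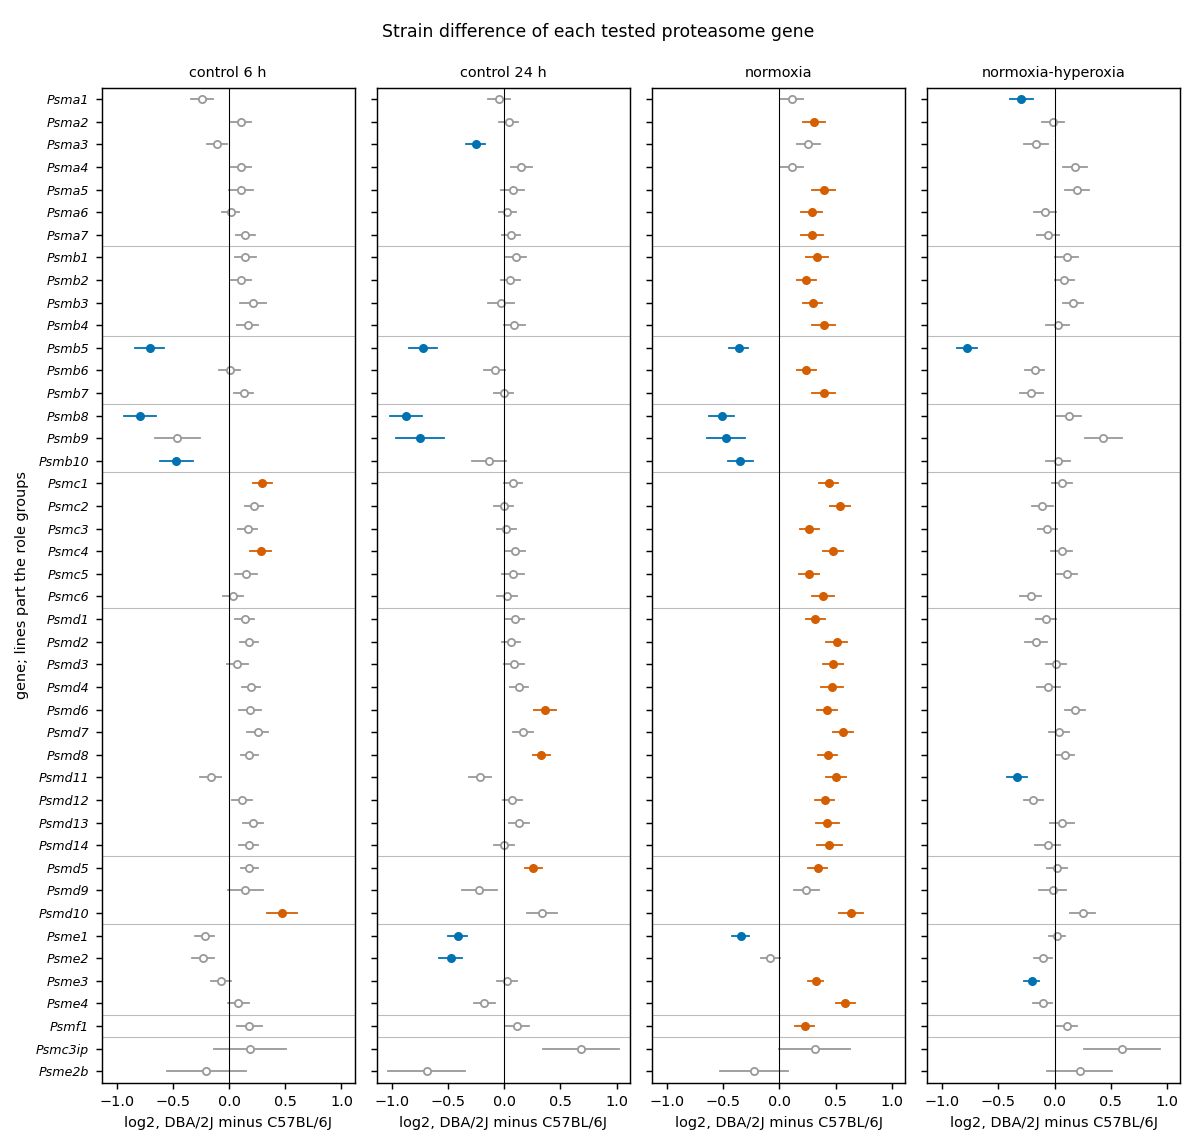
Strain difference, DBA/2J minus C57BL/6J on the log2 scale (x axis, bars of 1 SE), of each of the 44 tested proteasome genes in 4 conditions, ordered by role. Filled points passed an adjusted p under 0.05 (orange higher in DBA/2J, blue lower) and open points did not; 32 points are filled to the right under normoxia and Psmb5 is filled to the left in all 4 panels.

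Other genes of the pathway were followed in lists, whose counts read against the shares of all genes. These were 34.7% higher and 37.4% lower at 24 h against 6 h, 42.4% and 39.7% under normoxia, and 34.1% in each direction under normoxia-hyperoxia, the last 2 against 24 h controls. Of 20 assembly factors and partners, 13 were higher and 1 (Sem1) lower at 24 h than at 6 h, led by Zfand2a, an arsenite-inducible partner of the 19S cap, at 1.40 (SE 0.0701) and Rad23b, a shuttle for ubiquitinated proteins, at 0.86 (SE 0.0661). Under normoxia 12 were lower and 2 higher against 24 h controls, with Zfand2a at -3.23 (SE 0.0589) and the core chaperone Psmg1 at 0.86 (SE 0.0870). Under normoxia-hyperoxia 16 of 20 were lower and 0 higher, led by the deubiquitinase Usp14 at -1.01 (SE 0.0721). Of 10 genes that control subunit transcription, 8 were lower and 1 higher under normoxia against 24 h controls, led by the small Maf proteins Maff at -6.16 (SE 0.0663) and Mafk at -2.68 (SE 0.0622), with Ngly1, the glycanase that activates NRF1, at 0.63 (SE 0.0660). At 24 h against 6 h 5 were higher and 2 lower, and under normoxia-hyperoxia 4 and 4, the last near the shares of all genes. Of 6 ubiquitin and E1 genes, all 6 were lower under normoxia, led by the E1 Uba6 at -1.49 (SE 0.0691). Under normoxia-hyperoxia the polyubiquitin gene Ubb was higher, at 0.66 (SE 0.0625), and 3 of the 6 genes were lower.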

How the data were processed

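Raw read counts per gene of 48 libraries of mouse kidney slices were used as the authors deposited them, one whole number per gene and library. Reads came from a stranded mRNA ligation preparation per the labels' protocols. The tools bcl2fastq 2.20.0, FastQC 0.11.8, STAR 2.7.9a and featureCounts 1.5.1 and the build GRCm38 are named per the submitters' processing notes. The annotation release, strand setting and filters are not given in the sources used here, so overlapping genes may share reads.

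Each comparison was fitted in R 4.3.3 with edgeR 4.0.16 (TMM factors, filterByExpr, robust quasi-likelihood F test) on its own 12 libraries in 4 groups, which leaves 8 residual degrees of freedom. P-values were adjusted by Benjamini-Hochberg over all genes tested. Effects are the mean over both strains, the interaction is the DBA/2J effect minus the C57BL/6J effect, and strain differences come from the fits of the controls and of the oxygen conditions. Levels are CPM with TMM factors over all 48 libraries, and levels per kilobase use the union of annotated exons. Shares of counts use library totals without TMM factors. DESeq2 1.42.0, other scalings and filters, the replicate number as a block, 1 fit over every group and each library left out were tried as alternatives. No replicate pair agreed within sampling noise, with a lowest chi-square per degree of freedom of 5.76. Figures were drawn with matplotlib 3.10.9.

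The genes, lists and motifs were chosen with earlier results of these data known. Named genes are, for each comparison with calls, the 4 largest called changes in each direction, all catalytic subunits, activators and the inhibitor, and for interactions and strain differences the 4 called genes of smallest p. Genes named outside this rule, such as Psmd2, Psma4 and Psmb10 in some comparisons, were chosen after their values were seen.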

Additional observations from a re-analysis of the deposited data

Results flagged for a closer look

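The strains differed in the response of the proteasome genes listed next by the interaction term of edgeR at an adjusted p under 0.05, given here as the DBA/2J effect minus the C57BL/6J effect on the log2 scale. Against 24 h controls, the response to normoxia differed for the activators Psme4 (0.77), Psme2 (0.41) and Psme3 (0.31). It differed for the 19S non-ATPases Psmd11 (0.73), Psmd2 (0.46), Psmd14 (0.45), Psmd7 (0.41), Psmd3 (0.40) and Psmd4 (0.34), and for the ATPases Psmc2 (0.55), Psmc4 (0.39), Psmc6 (0.38) and Psmc1 (0.37). In the core it differed for Psma3 (0.52) and Psmb7 (0.41). Against 6 h controls it differed for Psmd11 (0.64). These calls were not equally firm. The 15 against 24 h controls fell to 3 on leaving out C57BL/6J 24 h control replicate 3, while Psme4, Psmd11 and Psmc2 were called in all 19 alternatives and Psmd2 in 16.

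Against 24 h controls, the response to normoxia-hyperoxia differed for the immune subunits Psmb9 (1.202), called in 9 of 19 alternatives, and Psmb8 (1.02), called in all 19. Between normoxia-hyperoxia and normoxia the difference was positive for Psmb9 (0.91), Psmb8 (0.64) and Psme1 (0.37). It was negative for the 19S non-ATPases Psmd11 (-0.84), Psmd2 (-0.68), Psmd12 (-0.59), Psmd7 (-0.53), Psmd4 (-0.52), Psmd14 (-0.50), Psmd3 (-0.46) and Psmd1 (-0.40). Among the ATPases it was negative for Psmc2 (-0.65), Psmc6 (-0.60), Psmc4 (-0.41) and Psmc1 (-0.37), and among the catalytic core subunits for Psmb7 (-0.60), Psmb6 (-0.41) and Psmb5 (-0.41). The activators Psme4 (-0.69) and Psme3 (-0.53) were negative too. This count of 20 fell to 12 without C57BL/6J normoxia replicate 2. The normoxia and 24 h control libraries each serve in more than 1 of these comparisons, so the values are not independent.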

How the results depend on the processing

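Of 154 alternative counts of called proteasome genes that leave out no library, 138 were within 1.5 times the reported count. The other 16 were these. Tunicamycin at 24 h (1 reported) gave 0 with no filter on low counts, in a fit of all 48 libraries and with the replicate block, and 6 with DESeq2. The strain difference at 6 h (6) gave 27 with library totals alone and 11 with DESeq2, that at 24 h (9) gave 5 with no filter, and that under normoxia (37) gave 24 with no filter. The normoxia interaction against 24 h controls (15) gave 8 with RLE factors, 5 with library totals alone, 5 without mitochondrial genes and 6 in the fit of all libraries. The interaction between the oxygen conditions (20) gave 11 with library totals alone. The normoxia interaction against 6 h controls (1) gave 2 with DESeq2, 2 in the fit of all libraries and 3 with the replicate block. The cause was not tested. Among 2204 values of named genes 2 reversed, both with library totals alone: Psmb7 at 24 h against 6 h (0.17) and Psmb6 under normoxia against 24 h controls (-0.17). Of the rest 2107 kept their side of the threshold, 29 of them with a change of sign where neither value passed, 80 lost a call and 15 gained one.

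Leaving out 1 library at a time gave 0 to 1 calls for tunicamycin at 24 h, 29 to 31 for 24 h against 6 h, 29 to 31 for normoxia and 40 to 41 for normoxia-hyperoxia against 24 h controls, 29 to 34 between the oxygen conditions and 14 to 22 for normoxia against 6 h controls. The interactions of the last 4 ranged over 3 to 19, 1 to 3, 12 to 26 and 0 to 3, and the strain differences over 2 to 18 at 6 h, 5 to 10 at 24 h, 26 to 39 under normoxia and 2 to 5 under normoxia-hyperoxia. All other counts stayed at 0.

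Whether the replicate numbers pair the slices is not known. The correlation was above 0.1 in 0 to 5 of 6 same-numbered pairs of a comparison and never in all 6, though in all 3 pairs of 1 strain in several (DBA/2J with tunicamycin at 24 h, 0.202 to 0.216), and 2 to 6 of 6 correlated best with their own number. For normoxia against 6 h controls all 6 pairs correlated best with their own number, and 5 were above 0.1. These correlations do not settle whether slices were paired, and the reported fits leave the block out. With the replicate block the interaction between the oxygen conditions gave 29 calls, 24 h against 6 h 28, and normoxia against 6 h controls 22. Psmb9, Psme2b and Psmc3ip were the tested genes of lowest level, and DBA/2J normoxia-hyperoxia replicate 2 was the library of fewest counts. The effect of depth on these genes was not tested.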
